A study of Mus musculus with 64 samples.

Results

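The TAM receptors and their ligands are 5 genes of the 45708 in the count table: the receptor tyrosine kinases Axl, Mertk and Tyro3, and the secreted ligands Gas6 and Pros1. They were chosen by gene symbol, and the contrasts that led to the choice were repopulation against naive and against depletion in each genotype, and old against adult, so in those contrasts the values are given as a description without a test. All 5 genes passed the filter on low counts.

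TAM receptors sit on phagocytes. Gas6 and protein S (the product of Pros1) carry a vitamin K dependent domain that binds phosphatidylserine on dying cells and on shed membrane, and a second domain that engages the receptor, so that each ligand bridges the phagocyte to its target. Mertk is the receptor of steady-state clearance of apoptotic cells and, in the brain, of myelin and synaptic debris. Axl is induced by inflammatory stimuli, interferon among them, and binds Gas6 but not protein S. Tyro3 is the family's receptor in neurons and myelinating cells, and protein S is also an anticoagulant of the blood.

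The libraries came from mouse brain cells sorted for CD11b and CD45, the surface proteins of microglia, in a study of mice lacking the Rieske iron-sulfur protein (RISP) of respiratory complex III, which the gene Uqcrfs1 encodes. RISP KO, RISP Het and RISP WT cells came from naive mice, from mice given PLX3397, an inhibitor of the microglial survival receptor CSF1R, at the depletion stage, and from mice in which microglia repopulated the brain after it. KO and Het cells also came from mice given cuprizone, a toxin of myelin-forming cells, and Het cells from naive old mice; all other groups were labelled adult. The groups were naive KO (13 libraries), naive Het (13), naive WT (5), depletion KO (2), depletion Het (2), depletion WT (4), repopulation KO (4), repopulation Het (4), repopulation WT (4), cuprizone KO (6), cuprizone Het (4) and old Het (3). Counts on the recombinase CreERT2 were found in all 12 groups, WT included, at 171 to 929 CPM (counts for each 1e6 counts of a library), and the driver, dose, day, sex and age in months are not given in the sources used here. Nor is it said whether libraries of a group are separate animals, so the spread between them may be technical.

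Total counts, in units of 1e6, ran from 2.695 to 24.03 per library (median 11.89), and the libraries fell into 4 sets by depth and by the share of counts on the noncoding RNAs Gm26917 and Yam1. The set with shares of 0.0688 to 0.276% is called noncoding-poor here (34 libraries: all depletion, repopulation and WT libraries, 5 naive KO and 4 naive Het). The others were 13 naive libraries of middle depth, 7 deep ones (2 naive KO, 2 naive Het and the 3 old Het) and the 10 shallow cuprizone ones. Sex, read from Y-linked genes, was uneven between groups. In the noncoding-poor set all 5 naive WT libraries read as male, as did 4 of 5 naive KO and 1 of 4 naive Het. In repopulation 3 of 4 KO, 1 of 4 Het and 2 of 4 WT libraries read as male. Comparisons stayed inside a set except for cuprizone against naive and for the difference of KO effects between cuprizone and naive cells. Uqcrfs1 was at 5.33 to 9.32 CPM in naive KO libraries, against 19 to 37.7 CPM in Het libraries, and 34.4 to 43.9 CPM in WT of the noncoding-poor set, and KO was below its controls in every comparison. All values below are CPM scaled by TMM, edgeR's correction for RNA composition.

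Per kilobase of exon Mertk was the most abundant of the 5 genes in 63 of 64 libraries and Tyro3 the least in all 64. In naive WT cells the median level per kilobase was 174.3 CPM for Mertk, 150.5 for Pros1, 113 for Gas6, 25.41 for Axl and 1.732 for Tyro3. The ranges of Mertk (162.4 to 234.7 CPM per kilobase) and Pros1 (134.4 to 159.9) did not meet, while those of Pros1 and Gas6 (103.8 to 141.9) overlapped. Pros1 stood above Gas6 in 48 of 64 libraries.

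Axl lies at chr7:25757273-25788705 on the minus strand of GRCm38 (ENSMUSG00000002602), Mertk at chr2:128698956-128802894 on the plus strand (ENSMUSG00000014361) and Tyro3 at chr2:119797733-119818104 on the plus strand (ENSMUSG00000027298). Of the ligands, Gas6 lies at chr8:13465374-13494490 on the minus strand (ENSMUSG00000031451) and Pros1 at chr16:62854307-62929346 on the plus strand (ENSMUSG00000022912). Genes that overlap Mertk and Gas6 held few counts: 351 and 198 for Gm14011 and Gm23172, beside 600872 for Mertk, and 98 for Tmem255b, beside 148717 for Gas6, summed over all libraries.

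The promoter sequences of Axl, Gas6 and Pros1 are shown because these are the genes that moved with genotype. Each is 300 bases from RefSeq (GRCm38.p6), 5′ to 3′ on the gene's strand, from 250 before to 50 after the start: chr7:25788684-25788983 for Axl (minus strand), chr8:13494486-13494785 for Gas6 (minus strand) and chr16:62854057-62854356 for Pros1 (plus strand). Capitals mark GGGCGG, the GC box of Sp1, on either strand.
Axl: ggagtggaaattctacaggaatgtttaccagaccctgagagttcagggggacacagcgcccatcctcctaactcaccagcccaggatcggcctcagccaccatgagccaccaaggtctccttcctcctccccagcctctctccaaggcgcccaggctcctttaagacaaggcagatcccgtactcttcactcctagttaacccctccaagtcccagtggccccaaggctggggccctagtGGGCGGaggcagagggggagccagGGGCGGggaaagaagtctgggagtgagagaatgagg
Gas6: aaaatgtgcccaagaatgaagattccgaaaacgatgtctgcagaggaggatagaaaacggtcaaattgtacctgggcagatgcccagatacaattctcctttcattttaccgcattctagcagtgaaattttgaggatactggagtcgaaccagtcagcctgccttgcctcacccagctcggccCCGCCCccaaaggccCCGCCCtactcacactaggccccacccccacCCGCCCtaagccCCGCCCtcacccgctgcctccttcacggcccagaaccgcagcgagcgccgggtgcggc
Pros1: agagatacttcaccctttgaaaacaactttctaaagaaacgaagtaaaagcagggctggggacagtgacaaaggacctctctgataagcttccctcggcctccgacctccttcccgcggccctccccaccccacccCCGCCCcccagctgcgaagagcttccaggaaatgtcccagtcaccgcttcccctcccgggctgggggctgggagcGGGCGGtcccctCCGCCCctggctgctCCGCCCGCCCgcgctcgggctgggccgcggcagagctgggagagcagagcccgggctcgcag
The Axl window holds 2 GC boxes, on either side of the start, Gas6 holds 4 and Pros1 holds 5, of which 2 overlap. Of 32851 RefSeq mouse promoters of this length, 35.658% hold at least 1. The Axl window holds 6 CG pairs, near the median of 7 over all promoters, and those of Gas6 and Pros1 hold 17 and 21. On both strands of the 5 members' windows, the letters of the interferon-stimulated response element (in 3.443% of promoters), AP-1 (TGANTCA, 7.808%), PU.1 (GAGGAAGT, 3.202%) and the ATF4 element (TGATGNAAN, 3.954%) were not found, which says nothing of sites outside the windows.

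Axl is the inducible receptor of the family, and in naive cells of each library set its median was lowest in KO. In the noncoding-poor set naive KO libraries held 73.4, 67.4, 74.9, 72.2 and 74.4 CPM, naive Het libraries 79.4, 106.4, 129.1 and 103.7 CPM, and naive WT libraries 96.7, 187.9, 146.2, 127.9 and 96.0 CPM. Every KO library was below every Het and every WT library of that set, and Het and WT overlapped. In these libraries the summed markers of 9 blood monocyte genes also ran lower in KO, at 32.2 to 94.1 CPM, against 84.6 to 177.2 CPM in Het libraries, and 103.1 to 153.7 CPM in WT, as did 12 markers of border-associated macrophages, at 248.2 to 750.4 CPM in KO, 728 to 1111 CPM in Het libraries, and 721.9 to 1679 CPM in WT. Both sums of KO overlapped Het, only the macrophage sum overlapped WT, and their part in the Axl level was not tested. In the middle-depth set KO libraries ran from 65.7 to 125.7 CPM (median 101.9) and Het libraries from 97.5 to 192.3 CPM (median 161.9), and the groups overlapped. The 2 deep KO libraries held 65.6 and 83.5 CPM and the 2 deep Het libraries 105.3 and 76.5 CPM.

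Averaged over the 3 sets, Axl in naive KO against Het had a log2 fold change of -0.49 ± 0.17 (SE), which did not pass (adjusted p = 0.0543, edgeR's quasi-likelihood test with Benjamini-Hochberg adjustment over all genes). KO against WT gave -0.85 ± 0.25 and also did not pass (adjusted p = 0.0535). Both lay near the threshold of 0.05, and 7 of 11 other settings for Het and 6 of 7 for WT put Axl past it. Het against WT was -0.32 ± 0.26 (adjusted p = 0.864).

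After PLX3397 depletion Axl did not stand apart from naive cells, and after repopulation it was high in all genotypes, less so in KO. Repopulation KO libraries held 175.4, 164.7, 226.4 and 210.5 CPM, repopulation Het libraries 363.9, 362.8, 450.2 and 530.5 CPM, and repopulation WT libraries 377.5, 606.7, 197.6 and 610.7 CPM. All 4 KO libraries were below all 4 Het libraries, while 1 WT library (WT repopulation 3) lay inside the KO range. Depletion libraries stood at 74.1 and 73.6 CPM in KO, 82.8 and 80.1 CPM in Het, and 92.6, 70.8, 119.1 and 107.2 CPM in WT.

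Described without a test, Axl in repopulation against naive cells had a log2 fold change of 1.42 ± 0.26 in KO, 2.03 ± 0.28 in Het and 1.78 ± 0.26 in WT, and the repopulation libraries lay above the naive ones in each genotype; scaled by library total alone, WT overlapped. Of all genes, 3.06% were called in KO, 5.51% in Het and 3.31% in WT in these contrasts. Against depletion the log2 fold change was 1.40 ± 0.36 in KO, 2.39 ± 0.38 in Het and 2.2 ± 0.28 in WT, where 0.907%, 1.28% and 3.69% of genes were called. These contrasts share their repopulation libraries. Depletion against naive was 0.03 ± 0.32 in KO (1.29% of genes called), -0.36 ± 0.34 in Het (5.11%) and -0.43 ± 0.26 in WT (2.87%), with overlapping libraries throughout, except that Het lay below naive when scaled by library total.

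**Figure D1:**
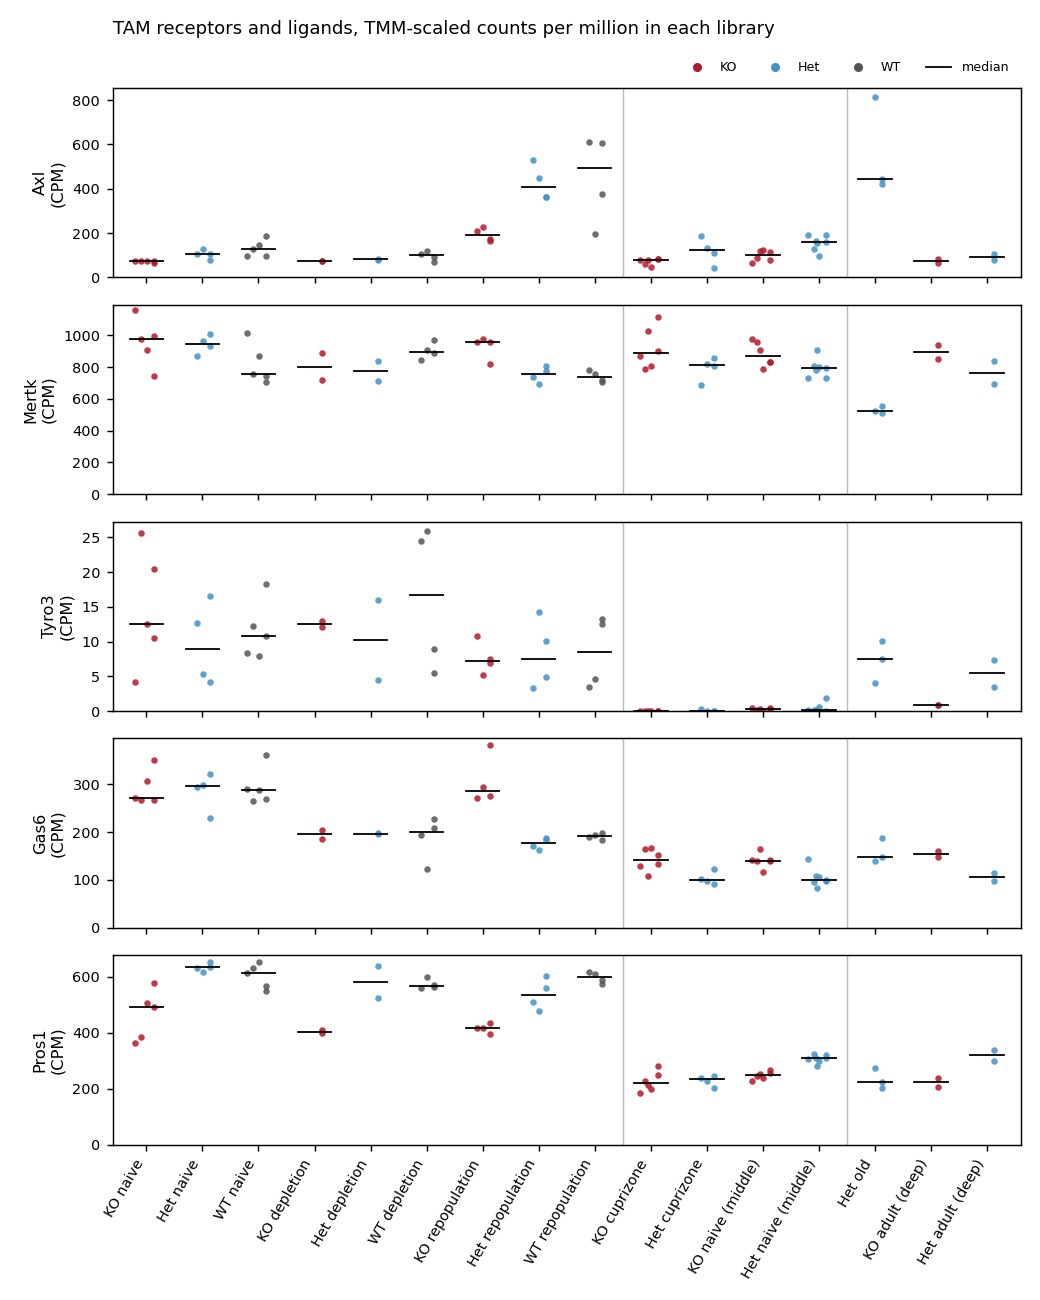
TMM-scaled CPM of the 5 genes in each of 64 libraries (points, coloured by genotype) with the group median (line); grey lines part the noncoding-poor set from the cuprizone and middle-depth libraries and from the deep set. Axl is high in repopulation Het and WT and in old Het libraries, at 197.6 to 816.2 CPM, and Pros1 is lower in KO than in Het or WT medians of every set of naive and PLX3397 libraries.

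The tests of genotype within repopulation use libraries whose levels also entered the choice of the members. That choice set them against other groups, not against each other, but the tests are not independent of it. Axl averaged 194.3 ± 29 CPM in repopulation KO, 426.8 ± 80.3 CPM in Het libraries, and 448.1 ± 199.5 CPM in WT (SD, n = 4 each). It fell in KO against Het by 1.14 on the log2 scale (SE 0.28, adjusted p = 0.0068) and against WT by 1.21 (SE 0.28, adjusted p = 0.00369, edgeR). Leaving out any 1 of the 8 libraries kept both calls. Het against WT was -0.07 ± 0.27, with an adjusted p of 1.

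Axl was also high in old Het cells, and under TMM the highest library of the series was an old one. That library (Het naive_old 3) had a TMM factor of 0.709, the lowest of the series. Its Y-linked genes, scaled by library total alone, summed to 28.6 CPM, against 72.2 to 257.1 CPM in the other libraries read as male. The 3 old libraries stood at 445.9, 419.9 and 816.2 CPM and the 2 adult Het libraries of the same deep set at 105.3 and 76.5 CPM, a log2 fold change of 2.63 ± 0.39 given as a description (5.37% of genes were called). The summed level of 9 blood monocyte markers was 219.2 to 478.4 CPM in the old libraries, against 73.9 to 102.7 CPM in the adult ones. Over the 7 deep libraries, of which the 3 old ones were highest in both, Axl and that sum had a Pearson r of 0.98 (rho 0.929). Over the 34 noncoding-poor libraries r was -0.198, and 0.255 as deviations from the group means. It was 0.378 over the 13 middle-depth and 0.468 over the 10 cuprizone libraries. The sum's part in the Axl level was not tested. In repopulation libraries, where Axl was also high, that sum was 23.9 to 54.5 CPM in KO, 32.2 to 69.0 CPM in Het libraries, and 37.4 to 64.7 CPM in WT, against 32.2 to 94.1 CPM in naive KO, 84.6 to 177.2 CPM in naive Het and 103.1 to 153.7 CPM in naive WT of the same set, so that only the KO ranges overlapped.

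Under cuprizone Axl was lower in KO than in Het. Across the 6 KO libraries the range was 48.95 to 84.73 CPM (median 77.09), and the 4 Het libraries held 112.2, 42.1, 132.0 and 187.7 CPM. One Het library (Het cuprizone 2) was below every KO library and the other 3 were above all of them. The log2 fold change was -0.72 ± 0.25 (adjusted p = 0.0469, edgeR), and the call did not hold without Het cuprizone 1, 3 or 4, with -0.41 ± 0.27 and an adjusted p of 0.358 without Het cuprizone 4. Nor did it hold in 4 of 8 other settings. Cuprizone against naive cells of middle depth gave -0.46 ± 0.23 in KO (adjusted p = 0.235) and -0.39 ± 0.25 in Het (adjusted p = 0.341). All cuprizone libraries are shallow and no naive library is, so treatment and library set cannot be told apart in that comparison.

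At depletion the 2 KO libraries overlapped the Het and WT ones, and KO against the mean of Het and WT was -0.27 ± 0.33 (adjusted p = 0.903, edgeR). In bulk samples such as these, fewer cells of a type and less RNA per cell cannot be told apart.

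Mertk, the receptor of steady-state clearance, ran from 686.4 to 1160 CPM in all libraries but the old ones. Repopulation KO libraries held 821.7, 960.3, 979.6 and 957.4 CPM, Het libraries 773.8, 805.0, 693.2 and 736.2 CPM, and WT libraries 706.6, 719.1, 756.1 and 779.9 CPM. All 4 KO libraries were above all 8 others. The log2 fold change of KO was 0.31 ± 0.11 against Het (adjusted p = 0.1002) and 0.33 ± 0.11 against WT (adjusted p = 0.0709), neither past the threshold. Fitted on the compared libraries alone, both passed, with adjusted p of 0.0333 and 0.0212.

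Elsewhere KO and control libraries of Mertk overlapped, apart from the deep set, where KO (939.1 and 850.2 CPM) lay above Het (838.9 and 692.5 CPM) under TMM and below it when scaled by library total. In the noncoding-poor set naive KO libraries held 741.7 to 1160 CPM, naive Het 872.9 to 1007 CPM and naive WT 704.3 to 1017 CPM. Naive KO against Het gave 0.13 ± 0.07 (adjusted p = 0.247), naive KO against WT 0.23 ± 0.10 (adjusted p = 0.333), cuprizone KO against Het 0.21 ± 0.10 (adjusted p = 0.157) and depletion KO against controls -0.06 ± 0.13 (adjusted p = 1; all edgeR). The intervals of these log2 fold changes reach from -0.005 to 0.27, from 0.03 to 0.42, from 0.01 to 0.41 and from -0.32 to 0.20. Described without a test, repopulation against naive was -0.04 ± 0.10 in KO, -0.33 ± 0.11 in Het and -0.14 ± 0.10 in WT. The old Het libraries, at 510.9, 556.7 and 523.8 CPM, lay below the adult ones, at 838.9 and 692.5 CPM.

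Tyro3, known from neurons and myelinating cells, was the least abundant member, and in the noncoding-poor set it varied with myelin transcripts. In the noncoding-poor set it ran from 4.24 to 25.62 CPM in naive KO, 4.14 to 16.59 CPM in naive Het and 7.96 to 18.36 CPM in naive WT, with 37 to 338 counts per library across that set. In the middle-depth set the highest library (Het naive 6) held 16 counts and 10 of 13 held 3 or fewer. All 6 KO cuprizone libraries held 0 counts, which allows up to 0.631 to 0.885 CPM per library (3 counts, counting error only), and 3 of 4 Het cuprizone libraries held 0. No comparison of Tyro3 passed the test in the main fit. With groups pooled over library sets, cuprizone against naive called Tyro3 lower in Het (adjusted p = 0.0471) and KO (0.00599, edgeR). That setting puts the cuprizone libraries beside naive ones of every other set. In the main fit the standard errors of Tyro3 were 0.45 to 2.74 on the log2 scale. There, in repopulation, the 95% interval of KO reached from -1.33 to 1.13 against Het and from -1.39 to 1.07 against WT.

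Across the 34 noncoding-poor libraries the level of Tyro3 and the summed level of 11 oligodendrocyte markers had a Pearson r of 0.965 and a Spearman rho of 0.978. As deviations from the 9 group means r was 0.974. In the other sets r was -0.105 (13 middle-depth libraries), 0.0682 (10 cuprizone libraries) and 0.248 (7 deep libraries). Het naive 2, with 16.59 CPM, and Het naive 1, with 4.14 CPM, bracket the spread within 1 group. These libraries share the scaling and the sort, and the correlation is given as a description. All 11 oligodendrocyte markers had counts in that set, and the part of myelin RNA in the Tyro3 level was not tested.

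Gas6, the ligand of all 3 receptors, was higher in repopulation KO cells than in both controls. Repopulation KO libraries held 381.4, 276.0, 295.4 and 270.5 CPM, Het libraries 187.4, 182.8, 162.9 and 170.8 CPM, and WT libraries 197.5, 183.0, 194.9 and 190.5 CPM. Every KO library was above every Het and WT library. Gas6 rose in KO by 0.80 ± 0.15 on the log2 scale against Het (adjusted p = 0.000195) and by 0.68 ± 0.15 against WT (adjusted p = 0.00174, edgeR), and Het against WT was -0.12 ± 0.14 (adjusted p = 1).

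The repopulation KO libraries overlapped the naive KO ones, and in naive cells of this set the genotypes overlapped. In the noncoding-poor set naive KO libraries held 267.6, 351.8, 306.0, 266.8 and 271.5 CPM, naive Het libraries 321.6, 229.0, 298.5 and 293.4 CPM, and naive WT libraries 269.4, 361.6, 287.8, 264.5 and 289.9 CPM. Described without a test, Gas6 in repopulation against naive was 0.06 ± 0.14 in KO, -0.70 ± 0.15 in Het and -0.62 ± 0.14 in WT. At depletion it stood at 205.5 and 186.1 CPM in KO, 195.6 and 197.7 CPM in Het, and 228.4, 208.2, 123.9 and 193.1 CPM in WT, so that all 3 genotypes overlapped at that stage, below the naive libraries of the same genotype.

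Markers of border-associated macrophages, brain cells that also carry CD11b and CD45, moved with part of this. The summed level of 12 of their markers was 60.7 to 122.8 CPM in repopulation KO, 83.4 to 147.1 CPM in Het libraries, and 66.9 to 134.8 CPM in WT, against 248.2 to 750.4 CPM in naive KO, 728 to 1111 CPM in naive Het and 721.9 to 1679 CPM in naive WT. Within repopulation the sums of the 3 genotypes overlapped. Over the 34 libraries Gas6 and that sum had a Pearson r of 0.593 (rho 0.484), and 0.215 as deviations from the group means; r was -0.468 over the 13 middle-depth, 0.453 over the 10 cuprizone and -0.583 over the 7 deep libraries. None of the 12 markers was at 0 throughout a group, and their part in the drop from naive cells was not tested.

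**Figure D2:**
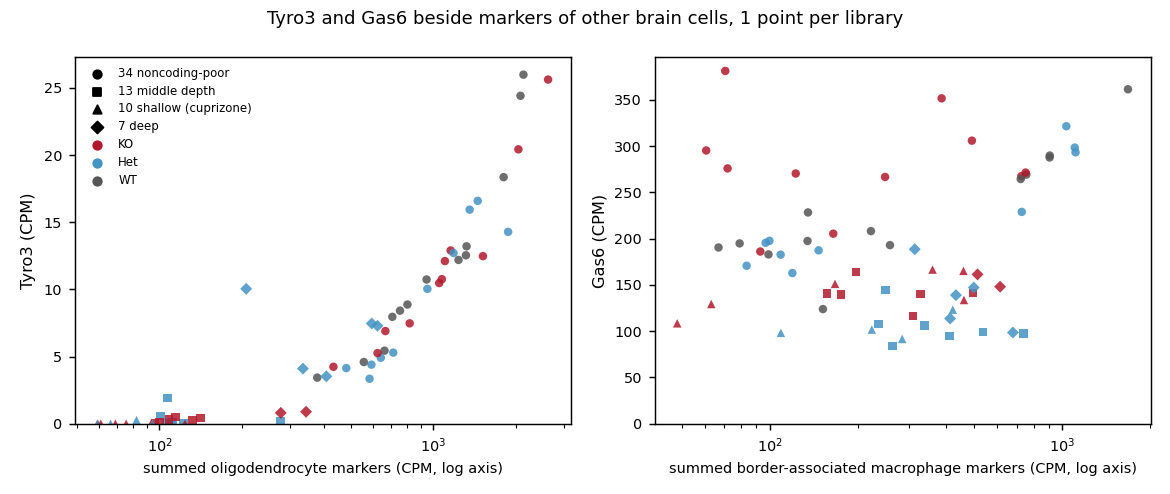
Left, Tyro3 against the summed oligodendrocyte markers; right, Gas6 against the summed border-associated macrophage markers; TMM-scaled CPM, the marker sum on a log axis, 1 point per library, shape by library set and colour by genotype. Tyro3 rises with the myelin markers across the 34 noncoding-poor libraries (r 0.965), and the 4 repopulation KO libraries hold 270.5 to 381.4 CPM of Gas6 at marker sums of 60.7 to 122.8 CPM.

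In naive cells of the other sets the median of Gas6 was higher in KO. The 6 middle-depth KO libraries ran from 116.7 to 164 CPM (median 140.6), the 7 Het libraries from 84.17 to 144.3 CPM (median 99.16), and they overlapped through 1 Het library (Het naive 9). The 2 deep KO libraries held 161.4 and 148.1 CPM and the 2 deep Het ones 113.7 and 98.6 CPM. Averaged over the 3 sets Gas6 rose by 0.33 ± 0.09 on the log2 scale (adjusted p = 0.0095, edgeR). Within sets the log2 fold change was 0.04 (adjusted p = 0.976) in the noncoding-poor one and 0.54 (adjusted p = 0.319) in the deep one. In the middle-depth set alone, where the ratio of mean levels was 1.34, Gas6 kept its call. Over those 13 libraries Gas6 and the summed level of 13 lymphocyte markers had a Pearson r of 0.806 (rho 0.813). That sum was 175.3 to 231.6 CPM in KO (median 207) and 142.3 to 247.2 CPM in Het (median 182), and overlapped. Of the 13 markers, 4 were at 0 throughout KO and 3 throughout Het, and the sum's part in the Gas6 difference was not tested. The averaged call did not hold without Het naive 13 (adjusted p = 0.0729) or KO naive 12 (adjusted p = 0.0635). Against naive WT, which is found in the noncoding-poor set alone, KO was at -0.01 ± 0.13 (adjusted p = 1).

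Under cuprizone Gas6 ran from 108.5 to 166.6 CPM in KO (median 142.4) and stood at 91.6, 123.3, 98.2 and 101.7 CPM in Het. Of the 6 KO libraries, 5 were above every Het library. Gas6 rose by 0.46 ± 0.14 on the log2 scale (adjusted p = 0.0166, edgeR), and the call did not hold without Het cuprizone 1 (adjusted p = 0.0722) or in 5 of 8 other settings. The summed level of 11 astrocyte markers also separated the genotypes, at 138.6 to 174.3 CPM in KO and 107.7 to 129.9 CPM in Het, with 1 marker at 0 throughout KO and 3 throughout Het. Over the 10 cuprizone libraries Gas6 and that sum had a Pearson r of 0.673 (rho 0.697), a description over libraries that share depth and treatment, and the sum's part in the Gas6 difference was not tested. Cuprizone against naive left Gas6 at 0.02 ± 0.12 in KO (adjusted p = 0.966) and -0.02 ± 0.13 in Het (adjusted p = 0.976). Old Het libraries, at 188.6, 147.2 and 139.0 CPM, were above the adult ones under TMM and overlapped them when scaled by library total, and the described log2 fold change was 0.58 ± 0.19.

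Pros1, which encodes protein S, was lower in KO cells in naive, depletion and repopulation samples. Repopulation KO libraries held 394.2, 434.5, 416.0 and 416.5 CPM, Het libraries 560.6, 602.9, 476.3 and 511.3 CPM, and WT libraries 588.8, 575.7, 608.7 and 617.5 CPM. Every KO library was below every Het and WT library. Pros1 fell in KO by 0.37 on the log2 scale against Het (SE 0.11, adjusted p = 0.0249) and by 0.53 against WT (SE 0.11, adjusted p = 0.000732, edgeR). The call against Het did not hold without 1 of 5 libraries, Het repopulation 1 or 2 or KO repopulation 1, 3 or 4, with adjusted p of 0.0522 to 0.1241, or with no filter on low counts (0.0555).

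Summed markers of microglia and of endothelium also had lower medians in repopulation KO. The 10 microglia markers summed to 38080 to 41890 CPM in repopulation KO, 41150 to 46690 CPM in Het libraries, and 43120 to 51440 CPM in WT. There KO overlapped Het and lay below WT. The 11 endothelial and mural markers summed to 433 to 566 CPM in KO, 627 to 812 CPM in Het libraries, and 645 to 816 CPM in WT. The 13 lymphocyte markers, at 283 to 301 CPM in KO, 193 to 250 CPM in Het libraries, and 205 to 282 CPM in WT, were highest in KO, as were Gas6 and Mertk. As deviations from group means that sum had an r of -0.299 with Gas6 and 0.187 with Mertk. Under cuprizone 8 of the 13 were at 0 throughout each genotype. The sum was still 169.3 to 223.9 CPM in KO and 161.3 to 204.6 CPM in Het there, carried by the other genes. The endothelial and lymphocyte sums also separated KO from both controls where Axl did from Het. In the same noncoding-poor set the microglia sum stood at 33580 to 33760 CPM in depletion KO, against 40780 to 46560 CPM in Het libraries, and 40120 to 42590 CPM in WT, and at 35490 to 40820 CPM in naive KO, against 41720 to 46750 CPM in naive Het and 38410 to 46760 CPM in naive WT, which KO overlapped. In the other sets its medians were 23170 CPM in naive KO and 22530 CPM in naive Het at middle depth, 24900 CPM in KO and 27660 CPM in Het of the deep set, and 23020 CPM in KO and 20180 CPM in Het under cuprizone. Over the 34 noncoding-poor libraries Pros1 and the microglia sum had a Pearson r of 0.759 (rho 0.783), and 0.656 as deviations from the group means. With the endothelial and mural sum Pros1 had an r of 0.517 (rho 0.548), and 0.052 as deviations from the group means. Mertk had an r of -0.37 (rho -0.477) with the endothelial and mural sum, and -0.683 as deviations from the group means. For Gas6 and Axl those deviations gave 0.174 and 0.156. These are descriptions over libraries that share scaling. None of these markers was at 0 throughout a repopulation group. Their part in the differences of Axl, Mertk, Gas6 and Pros1 was not tested.

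In naive cells the lower Pros1 of KO was seen in all 3 library sets. In the noncoding-poor set KO libraries held 577.6, 491.7, 505.9, 385.6 and 364.5 CPM, Het libraries 636.8, 654.7, 617.6 and 631.9 CPM, and WT libraries 565.8, 549.3, 653.7, 631.3 and 615.3 CPM. KO was below Het throughout and overlapped WT through 1 library (KO naive 1). In the middle-depth set KO ran from 225.9 to 265.6 CPM (median 248.1) and Het from 281.9 to 322.8 CPM (median 308.4), and in the deep set KO held 207.6 and 236.8 CPM and Het 339.7 and 299.8 CPM.

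The log2 fold change of Pros1 in naive KO against Het was -0.43 ± 0.07 (adjusted p = 2.39e-06), and the one against WT was -0.37 ± 0.09 (adjusted p = 0.0189, edgeR). The call against WT did not hold without KO naive 4 (adjusted p = 0.131), KO naive 5 (0.1301), WT naive 3 (0.071) or WT naive 4 (0.0555), nor with no filter (0.0545) or on the compared libraries alone (0.1341). Summed border-associated macrophage markers reached lower in those naive KO libraries (248.2 to 750.4 CPM, against 728 to 1111 in Het and 721.9 to 1679 in WT). As deviations from group means Pros1 and that sum had an r of -0.006 over 34 libraries, and the sum's part in the difference was not tested.

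At depletion the 2 KO libraries held 399.9 and 408.3 CPM of Pros1, Het libraries 640.4 and 524.7 CPM, and WT libraries 570.6, 564.0, 598.8 and 561.6 CPM. Both KO libraries were below all 6 controls. Pros1 fell by 0.52 (SE 0.13, adjusted p = 0.0163, edgeR), and the call did not hold without either KO library (adjusted p = 0.274 and 0.178) or without Het depletion 1 (0.0899); a lone KO library was assumed to vary like the other groups.

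Under cuprizone Pros1 did not separate the genotypes. KO libraries ran from 184.2 to 281.1 CPM (median 220.3) and Het libraries held 244.8, 201.0, 227.5 and 239.3 CPM, a log2 fold change of -0.02 ± 0.10 (adjusted p = 0.983, 95% interval -0.21 to 0.18). Cuprizone Het libraries were all below the middle-depth naive Het libraries (281.9 to 322.8 CPM), and Pros1 fell there by 0.43 (SE 0.10, adjusted p = 0.00188, edgeR), against a median over all genes of -0.16, or -0.099 with DESeq2 size factors. On the compared libraries alone that call did not hold (adjusted p = 0.0574). In KO cells cuprizone against naive gave -0.13 ± 0.09 (adjusted p = 0.403). The difference between the KO effects under cuprizone and in naive cells was 0.30 ± 0.13 (adjusted p = 0.350, edgeR), which did not pass. It used the middle-depth naive libraries, so treatment and library set cannot be told apart there either. The old Het libraries held 203.2, 225.3 and 272.8 CPM and lay below the adult ones at 339.7 and 299.8 CPM, a described log2 fold change of -0.45 ± 0.13.

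**Figure D3:**
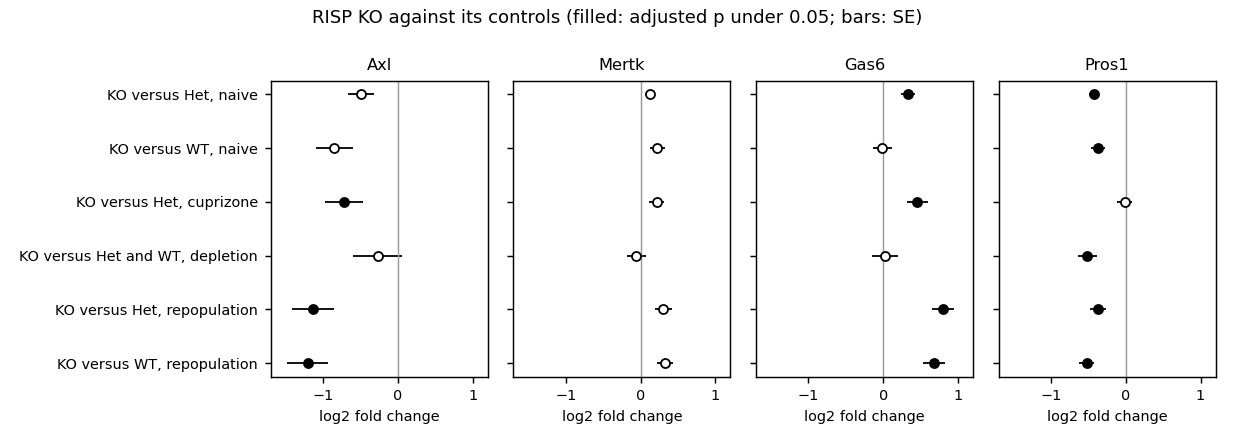
Log2 fold change of KO against its controls (points, with SE as bars) for Axl, Mertk, Gas6 and Pros1 in 6 comparisons; filled points have an adjusted p under 0.05 (edgeR, Benjamini-Hochberg over all genes). Axl lies below 0 in all 6 and is filled in 3, Gas6 reaches 0.80 in repopulation, and Pros1 lies at -0.37 or lower in 5 and at -0.02 under cuprizone.

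Counted over the 5 members, naive KO against Het called 2, Gas6 higher and Pros1 lower, where 10.7% of all genes were called in either direction, and naive KO against WT called 1, Pros1 lower (1.93% of genes). Cuprizone KO against Het called 2, Gas6 higher and Axl lower (14% of genes), and depletion KO against controls called 1, Pros1 lower (1.72%). Repopulation KO called 3 against Het (4.62% of genes) and 3 against WT (4.78%), each time Gas6 higher and Axl and Pros1 lower. Pooled over library sets, where the differences between sets enter the spread, each repopulation comparison called 1, Axl. The 2 repopulation comparisons share their KO libraries. Het against WT called no member in naive cells (0.0217% of genes, 1463 of 18413 at an unadjusted p under 0.05) and none in repopulation (0% of genes, 652 at an unadjusted p under 0.05, edgeR; DESeq2 also called no member). Cuprizone against naive called 1 member lower in Het (9.24% of genes) and none in KO (5.63%, 3920 genes at an unadjusted p under 0.05), and the difference of KO effects called none (0.179%, 2030 genes at an unadjusted p under 0.05).

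Ratios within a library do not depend on scaling. Per kilobase of exon, Axl stood to Mertk at 0.148 to 0.199 in repopulation KO, 0.388 to 0.621 in Het and 0.225 to 0.727 in WT, against 0.0553 to 0.0852 in naive KO, 0.0679 to 0.115 in naive Het and 0.0813 to 0.230 in naive WT. No repopulation KO library reached the lowest Het or WT one. In old Het libraries the ratio was 0.650 to 1.34, and 1 old library was the single one of 64 in which Axl exceeded Mertk.

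Gas6 stood to Pros1 at 1.02 to 1.55 in repopulation KO, 0.486 to 0.549 in Het and 0.495 to 0.538 in WT. In repopulation KO cells Gas6 was thus the more abundant ligand transcript per kilobase in all 4 libraries, and Pros1 in all 8 control libraries. The order in KO depends on the exon lengths used, 2548 bases for Gas6 and 4088 for Pros1. Without that division Pros1, at 394.2 to 434.5 CPM, stood above Gas6, at 270.5 to 381.4 CPM, in repopulation KO. At depletion the ratio was 0.731 to 0.824 in KO, 0.490 to 0.605 in Het and 0.332 to 0.642 in WT, and under cuprizone 0.823 to 1.35 in KO and 0.6 to 0.984 in Het, where the groups overlapped. In naive cells it was 0.743 to 1.2 in KO, 0.561 to 0.810 in Het and 0.672 to 1.06 in WT of the noncoding-poor set. It was 0.788 to 1.04 in KO and 0.471 to 0.754 in Het of middle depth, and 1.00 to 1.25 in KO and 0.528 to 0.537 in Het of the deep set.

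**Figure D4:**
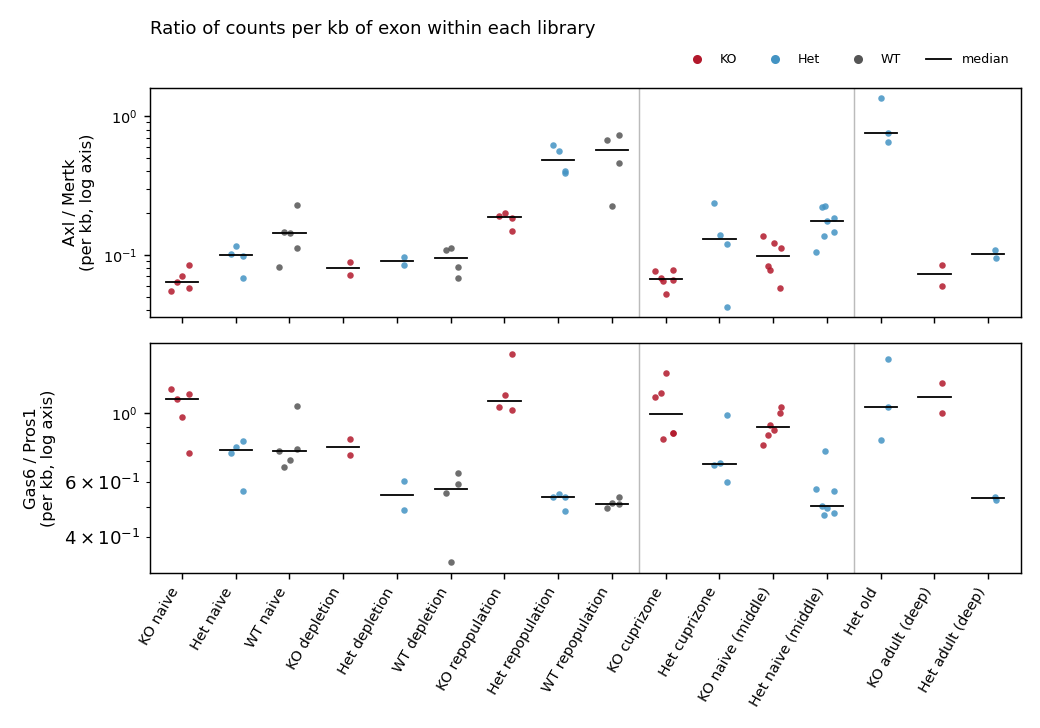
Ratio of Axl to Mertk (top) and of Gas6 to Pros1 (bottom) in counts per kilobase of exon within each library, on log axes, coloured by genotype with the group median as a line. Repopulation KO libraries sit at 0.148 to 0.199 for Axl to Mertk, below both controls, and at 1.02 to 1.55 for Gas6 to Pros1, above both.

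The genes whose levels were most like each member were sought over the 34 noncoding-poor libraries among 8494 genes. Axl was nearest to Ifi204 (Pearson r 0.94), Ifi27l2a (0.93) and Usp18 (0.92), all 3 known as interferon-stimulated genes. Usp18 stood at 11.1 to 16.2 CPM in repopulation KO, 21.3 to 32.5 CPM in Het libraries, and 20.1 to 32.7 CPM in WT, and KO did not overlap either control. Mertk was nearest to Atxn2l (0.85), Rab3gap1 (0.83) and Zfp598 (0.81), and Gas6 to Nid2 (0.85), a basement membrane protein, Npl (0.76) and Wdr36 (0.75).

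Tyro3 was nearest to Gpr37, Aplp1 and Lgi3 (0.97 each), of which Gpr37 is an oligodendrocyte receptor. Pros1 was nearest to Tmem176b (0.91), Rpn1 (0.91) and Tmem176a (0.90). Tmem176b stood at 125 to 131 CPM in repopulation KO, 369 to 391 CPM in Het libraries, and 352 to 429 CPM in WT, and KO was below both. Among the members themselves the strongest correlation was that of Axl with Mertk (r -0.48). These are descriptions over libraries that share treatment, genotype and scaling.

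Of 47 other genes of the uptake pathway that could be tested, 9 passed in naive KO against Het, 2 higher and 7 lower (19.1%, where 10.7% of all genes were called). The engulfment adaptor Elmo1 fell by 0.43 (SE 0.07, adjusted p = 1.71e-05) and the phosphatidylserine scramblase Ano6 by 0.37 (SE 0.06, adjusted p = 5.2e-06, edgeR). The scavenger receptor Stab1 fell by 0.54 (adjusted p = 0.0104) and the bridging protein Mfge8 by 0.47 (adjusted p = 0.0205). Galectin 3 (Lgals3), reported as a further Mertk ligand, rose by 0.98 (SE 0.23, adjusted p = 0.00196) and the lipid receptor Trem2 by 0.33 (adjusted p = 0.0138). Set against naive WT in the noncoding-poor set, Lgals3 was at -0.01 ± 0.31 in KO and -0.93 ± 0.34 in Het (adjusted p = 0.409 for Het, edgeR). Neither passed. Itgav (-0.39), Socs1 (-0.96) and Adam10 (-0.20) were the others that fell. Against WT, 3 passed (6.38%, beside 1.93% of all genes), all lower: Elmo1 (-0.40), Stab1 (-0.75) and Ano6 (-0.41). Stab1 is also a border-associated macrophage transcript in the mouse. The median sum of those cells' markers in the noncoding-poor set was 491.5 CPM in naive KO, 1069 CPM in Het and 906.2 CPM in WT. For naive KO and Het it was 253.2 and 338.5 CPM at middle depth, and 563.9 and 546.5 CPM in the deep set. Under cuprizone it was 264 CPM in KO and 253.8 CPM in Het. At depletion it was 129 CPM in KO, 98.4 CPM in Het and 187.1 CPM in WT. The sum's part in the Stab1 level was not tested.

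In repopulation KO against Het 6 of the 47 passed, 2 higher and 4 lower (12.8%, beside 4.62% of all genes), and against WT 6, 1 higher and 5 lower (12.8%, beside 4.78%). Mfge8 stood at 32.1 to 36.2 CPM in KO, 54 to 63.9 CPM in Het libraries, and 53.4 to 62.9 CPM in WT, and fell by 0.77 against Het (SE 0.22, adjusted p = 0.0268) and by 0.78 when set against WT (adjusted p = 0.0256). The integrin subunit Itgb5, of the receptor that reads Mfge8, fell by 0.52 (adjusted p = 0.00484) and 0.46 (adjusted p = 0.0154). The interferon receptor subunit Ifnar1, which associates with Axl in mouse dendritic cells, stood at 79.7 to 92.5 CPM in KO, 114 to 125 CPM in Het libraries, and 109 to 171 CPM in WT, and fell by 0.48 (adjusted p = 0.0023) and 0.68 (adjusted p = 1e-05). Against Het the integrin subunit Itgb3 also rose (0.46) and the complement subunit C1qa also fell (-0.50), and against WT Elmo1 (-0.40) and Ano6 (-0.44) also fell. The nuclear receptor Rxra rose by 0.54 (adjusted p = 0.00534) and 0.48 (adjusted p = 0.0153, all edgeR).

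At depletion 1 of 47 passed (2.13%, beside 1.72% of all genes), Stab1, which was lower in KO by 1.15 (adjusted p = 0.0239). Under cuprizone 8 passed in KO against Het, 4 higher and 4 lower (17%, beside 14% of all genes). Higher were Trem2 (0.69), Vkorc1 (0.70), which recycles the vitamin K that Gas6 and protein S need, Rac1 (0.31) and the flippase subunit Tmem30a (0.57), and lower were Stab1 (-0.89), Elmo1 (-0.46), Socs1 (-1.89) and Socs3 (-2.61), suppressors of cytokine signalling that TAM receptors induce in mouse dendritic cells. Neither the carboxylase Ggcx nor the sheddase Adam17 passed in any genotype comparison, and Adam10, the other sheddase, passed in naive KO against Het alone (-0.20, adjusted p = 0.0355).

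**Figure D5:**
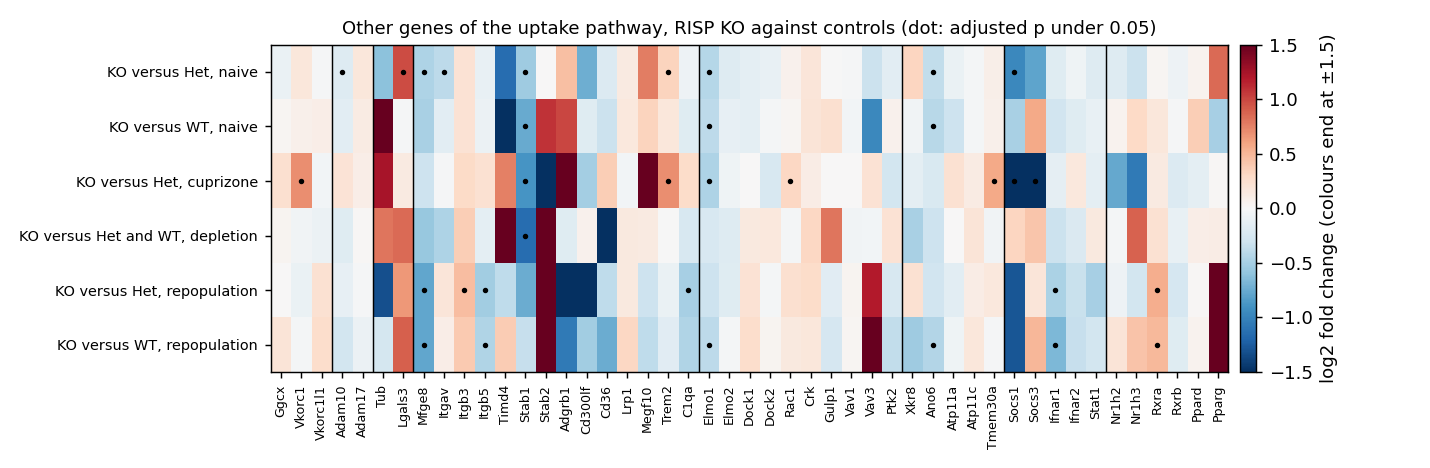
Log2 fold change of KO against controls (colour, ending at 1.5 either way) for 47 uptake-pathway genes other than the members, in 6 comparisons; black lines part the gene lists and dots mark an adjusted p under 0.05. Elmo1 is lower in 4 of the 6 comparisons with a dot, Mfge8 in 3 and Ano6 in 3.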

How the data were processed

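Per the labels' protocols, microglia were sorted and libraries were made with a stranded total RNA kit. The authors deposited raw counts per gene in 1 table, with no normalization. Per the submitters' processing notes the tools were bcl2fastq 2.20, Trim Galore 0.6.7, STAR 2.6.1d and Salmon 1.5.2 with GRCm38; which of them made the counts is not given in the sources used here. From the counts, edgeR 4.0.16 in R 4.3.3 was run on 18413 genes left by filterByExpr (minimum count 10, minimum total 15), with TMM scaling and a quasi-likelihood fit of 16 means, one for each group within each library set, over 64 libraries. Adjusted p values are Benjamini-Hochberg over all genes, with a threshold of 0.05, in 11 tested comparisons. The 10 contrasts used in choosing the members were only described. Naive KO against Het averages 3 library sets with equal weight. Alternatives were DESeq2 1.42.0 (size factors or Wald test), no filter, the compared libraries alone, groups pooled over sets, a replicate block, sex read from Y-linked genes, each set alone, a noncoding-share term, and, chosen after seeing the data, sets weighted by library numbers. The fitting step was tested on simulated data. Library sets were cut at 1% noncoding share and at totals of 15 and 5.5 in units of 1e6. No pair of libraries held identical values. Named genes were the members, up to 4 genes of each pathway list with the smallest adjusted p in a comparison, and the 3 genes with the highest Pearson r to each member. Members and lists were chosen with earlier results of these data known. Cd300lb, whose symbol has several rows, was left out. Count floors cover counting error only.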

Additional observations from a re-analysis of the deposited data

Results flagged for a closer look

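Within groups of 4 to 10 libraries, 5 of 54 gene and group combinations held a library far from the others by Dixon's test at 95%, where chance gives about 1 in 20. Mertk was low in KO repopulation 1, at 821.7 CPM. Tyro3 was high in Het cuprizone 4, at 0.2677 CPM from 1 count beside 3 libraries at 0, and in Het naive 6, at 1.905 CPM. Gas6 was high in Het naive 9, at 144.3 CPM, which is the library through which KO and Het overlapped at middle depth, and in WT naive 2, at 361.6 CPM.

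In depletion against naive, the depletion libraries of some genotype pairs lay on opposite sides of their naive means, and none of these differences was tested. For Axl the log2 ratio of means in KO minus that in Het was 0.389, and KO minus WT 0.454. Axl in KO itself was at 0.03 ± 0.32 in the fit, and at -0.04 with sex as a covariate and -0.20 with groups pooled over sets, so its direction was not settled. For Mertk it was -0.394 in KO minus WT and -0.43 in Het minus WT.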

How the results depend on the processing

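Members called changed as follows. With groups pooled over library sets, 1 was called in naive KO against Het, 2 in naive KO against WT, 2 in naive Het against WT, 0 in cuprizone KO against Het, 0 at depletion, 1 in each repopulation KO comparison, and 2 in cuprizone against naive in Het and 2 in KO. There Pros1 in naive Het against WT was -0.56, against 0.08 within the noncoding-poor set. Naive KO against WT called 2 with DESeq2 size factors, with DESeq2's Wald test and with sex as a covariate, against 1. Naive KO against Het called 1 in the noncoding-poor set alone and 0 in the deep set alone, against 2. Cuprizone KO against Het called 1 with DESeq2 size factors, 1 with no filter, 0 on the compared libraries alone and 0 with a term for noncoding share, against 2. Cuprizone against naive in Het called 0 on the compared libraries alone, against 1. Naive KO against Het called 3, Axl added, with DESeq2 size factors, the Wald test, no filter, the compared libraries alone, the middle-depth set alone and sets weighted by library numbers. In repopulation 4 were called, Mertk added, on the compared libraries alone against Het and WT and with the Wald test against WT, and 2 against Het with no filter, Pros1 lost. The causes were not tested.

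Replicate numbers did not pair the samples: correlations of same-numbered libraries ran from -0.24 to 0.32. With the replicate block cuprizone KO against Het called 1 in place of 2 (Axl -0.66, adjusted p = 0.106), and no other count of members changed. Old against adult could not be estimated with it.

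Leaving out 1 library at a time (45 fits, with the dispersion trend held from all libraries) gave 1 to 3 members in naive KO against Het, 0 to 2 in naive KO against WT, 0 to 2 in cuprizone KO against Het, 0 to 1 at depletion, 2 to 3 in repopulation KO against Het and 3 in repopulation KO against WT. Genes called ran from 105 to 3106 over settings in naive KO against Het and from 235 to 1884 in repopulation KO against Het. Tyro3 had 3 counts or fewer in 20 of 64 libraries. The 2 deep naive KO libraries held 12 and 14 counts and the 2 depletion Het libraries 52 and 158.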
